A study of Homo sapiens with 10 samples.

Results

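Processed pseudogenes are DNA copies of spliced messenger RNAs, and this account describes nucleosome positions at the starts of 7675 of the 9302 autosomal genes that GENCODE release 44 types as processed pseudogenes on GRCh38. The members were those whose annotated 5' end lay at least 5000 bp from the start of every protein-coding and lncRNA transcript. For the whole set, nucleosome midpoints were 1.13 times as dense over the first 200 bp as 1000 to 1500 bp away, while GC content there was 47.5% against 40.9%, and 63.3% of the starts without any position within 500 bp lay where 50% or more of the sequence was repeated, against 78.9% of autosomal windows without one.

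The cells were human induced pluripotent stem cells (hiPSCs) of the line PB010.5, which carries the FUCCI fluorescent cell cycle reporter, and no other line or differentiated cell enters this list. Chromatin was digested for 5 min with micrococcal nuclease (MNase), an enzyme that cuts the linker DNA between nucleosomes, at 5 concentrations: 10 U, 6 U, 3 U, 1 U and 0.5 U. Per concentration there was 1 library, read with 150-bp and again with 50-bp paired-end reads, which makes 10 samples. All values below come from 1 pooled list of 12921589 positions, each an interval of 140 bp with a score on the authors' own scale, so no difference between concentrations was analysed here and there are no replicates.

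Each SD below is taken across the 22 autosomes and describes the scatter of single autosomes, not the error of the value for the whole set. A difference within its SD is not thereby shown to be absent. The autosomes are parts of the same genome and not replicates, so no p-value is given. The list has no read totals and the pooled runs are not named, so the depth behind a position is unknown. The autosomes held 4.52 positions per kb on average, with a mean score of 15.8 and a median of 14.8. A score is a height in steps of 1.23, and the scale of these steps is not given in the sources used here. The list holds no expression values, so the cell type could not be checked against its marker genes.

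A processed pseudogene arises when the reverse transcriptase of LINE-1 retrotransposons copies an mRNA and inserts the copy elsewhere in the genome. The copy has no introns, usually ends in a run of A from the poly(A) tail, and as a rule lacks the promoter of its parent, which is why most such copies are silent. A start annotated on such a copy therefore marks copied sequence and not a place where a polymerase is known to begin. Copies of highly expressed housekeeping genes such as ribosomal protein genes are common, and young copies still resemble their parents closely, which makes short reads from them hard to place.

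The annotated starts of many members are start codons. Below are the first 30 bases of 5 family members, 5' to 3' on the strand of the pseudogene on GRCh38, with the ATG in capitals; they are shown because each begins at the start codon of its best-matching transcript and not at an RNA start.
CYCSP1, chr14:76633714-76633743, plus strand: ATGagtgatgctgagaaaggcaagattttt
HMGB1P3, chr2:230515023-230515052, plus strand: ATGgacaaagcagatcctaagaagctgaga
PPIAP1, chr21:20828593-20828622, minus strand: ATGgtcaaccccaccaggttcttagacatc
PTMAP1, chr6:30633632-30633661, plus strand: ATGtcagaggcagttgtggacacaagctcc
RPL10P1, chr21:27420994-27421023, minus strand: ATGggccgccgccccgcgggttgttaccgg

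Of the 7675 members, 2962 (38.6%) began with ATG. A protein-coding transcript was matched to 7070 members (92.1%), which came from 2717 genes, and 3075 of these matches (43.5%) began within 3 bp of the start codon. The sequence match ran on past the annotated 5' end by a median of 24 bp and by more than 10 bp in 61.3% of matched members. At the 3' end it ran on by a median of 116 bp, and by more than 10 bp in 77.8%. The annotated ends thus often lay inside the copied sequence, and the end of the match is used below as a second reference point.

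The matched transcripts were led by ribosomal and housekeeping genes. RPL21, a protein of the large ribosomal subunit, was the best match of 104 members. RPL23A, of the same subunit, followed with 71, the prolyl isomerase gene PPIA with 70, and RPL7A with 65. The keratin gene KRT18 was the best match of 52 members and the glycolytic enzyme gene GAPDH of 51. Identity to the best match had a median of 88.0% and quartiles of 82.2% and 92.6%. Bodies had a median length of 572 bp, quartiles of 352 and 967 bp, and a range of 23 to 22132 bp. The median GC content of a body was 45.6%.

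The median distance to the nearest protein-coding or lncRNA start was 24487 bp, where the rule set a minimum of 5000 bp. Place was judged by the 5' end and against protein-coding and lncRNA genes only. Outside any such gene lay 4242 members (55.3%). Of the rest, 2097 (27.3%) lay in such a gene of the other strand only and 1185 (15.4%) in one of the same strand only. The remaining 151 (1.97%) lay in genes of both strands.

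Positions were missing from about as many pseudogene starts as places on the autosomes in general. No midpoint lay within 500 bp of the 5' end of 395 members, which is 5.15% (95% Wilson interval 4.67 to 5.66%). Of 55123 windows of the same width placed every 50 kb along the autosomes, 5.07% held no midpoint. The 5.15% of members is thus near this background. Intervals cover counting error only. The median member had 5 midpoints within 500 bp, with quartiles of 4 and 6 and a maximum of 9. Exactly 1 midpoint was found at 104 members and 8 or more at 81.

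The share without a position followed repeated sequence. A 100-mer was called repeated when the same 100 bases occurred again on either strand of chromosomes 1 to 22, X and Y. Of the 6251 members with no repeated 100-mer within 500 bp, 29 had no midpoint, which is 0.464% (0.323 to 0.665%). The share was 3.89% (2.56 to 5.87%) of 540 members with repeated 100-mers at under 5% of bases, and 15.5% (12.9 to 18.6%) of 612 members with 5 to 50%. Of the 272 members with 50% or more, 250 had none, which is 91.9% (88.1 to 94.6%).

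The autosomal windows gave shares of 0.348%, 2.27%, 14.0% and 91.4% in the same 4 classes, as the plot of loss by repeated sequence shows. In the class with no repeated 100-mer, the member's interval of 0.323 to 0.665% overlapped that of the windows, 0.299 to 0.405%. The intervals also overlapped in the other 3 classes. Among protein-coding starts 2.68% had no midpoint, among 290 transcribed processed pseudogenes chosen by the same distance 10.3%, and among 1893 unprocessed pseudogenes, which arise by duplication of DNA, 22.2%. For starts with no repeated 100-mer these shares were 0.283%, 0.474% and 0.671%.

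**Figure D1:**
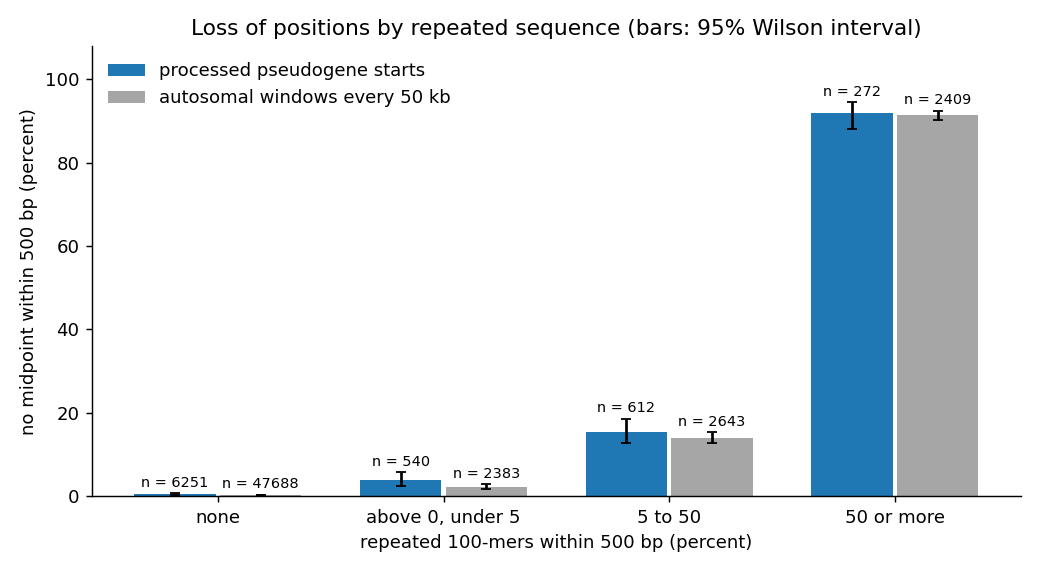
Share of starts or windows with no nucleosome midpoint within 500 bp (percent, vertical axis) by the percent of repeated 100-mers within 500 bp (horizontal axis), for processed pseudogene starts (blue) and autosomal windows placed every 50 kb (grey), with 95% Wilson intervals. The share is 0.464% of starts and 0.348% of windows with no repeat, and 91.9% and 91.4% where 50% or more is repeated.

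Members without a position lay in long regions without positions. Of the 395, 312 had none within 1500 bp either, and the median distance to the nearest midpoint was 20763 bp. For 223 (56.5%) it exceeded 10 kb. By chromosome, the share without a midpoint was 20.0% of 105 members on chromosome 21, 18.4% of 396 on chromosome 9, 13.6% of 110 on chromosome 22 and 12.5% of 216 on chromosome 15. It was 0.548% of 547 members on chromosome 6 and 0.789% of 380 on chromosome 12. The share of members with 50% or more repeated 100-mers was 14.3%, 14.4%, 14.5% and 10.6% on chromosomes 21, 9, 22 and 15, and 0.548% and 0% on chromosomes 6 and 12. The 2 shares were not this close on every chromosome. On chromosomes 4 and 5, 4.58% and 4.73% of members had no midpoint, while 1.59% and 0.758% were repeated to this extent. The 3 longest members without a midpoint were SEPTIN7P5, ENSG00000237961 and ENSG00000270955. SEPTIN7P5 (chr7:63495799-63502536) had repeats at 72.0% of the bases within 500 bp of its start. ENSG00000270955 (chr15:30282533-30288389) had 97.0% and ENSG00000237961 (chr4:49238032-49245419) had 34.6%, rising to 72.4% when words of 50 bases were counted. The match of each covered at most 15.7% of its body, so their parents are uncertain.

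Of the 29 members without a midpoint and without a repeated 100-mer, 5 also had no repeated 50-mer, and 11 had a midpoint within 1500 bp. The part that removal of blacklisted regions by the authors had in these absences was not tested.

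Where positions were present, midpoints were somewhat denser at the start than in the flanks, with no gap in front of it. A log2 of 0 stands for the density 1000 to 1500 bp from the 5' end, which was 4.41 midpoints per kb. In the 200 bp upstream the log2 density was 0.08 (SD 0.05 over 22 autosomes), and it was above 0 on all but 1 autosome. Over the first 200 bp downstream it was 0.18 (SD 0.07), above 0 on all 22. These are 1.06 and 1.13 times the flanks. The smoothed profile had its highest value within 300 bp of the start, 1.25, at 15 bp upstream, and its lowest, 0.936, at 155 bp upstream. The highest value downstream was 1.20 at 5 bp, and its place varied between autosomes with an SD of 83.4 bp. With the same reference points displaced by 10 kb to either side, log2 densities were 0.00 upstream on both sides, and -0.02 and 0.01 downstream.

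Starts of active genes are known for a nucleosome-depleted region that is followed by a nucleosome at a fixed distance, the +1 nucleosome, and a regular row behind it. The comparison set was the annotated 5' ends of all 19111 autosomal protein-coding genes, without regard to their activity. The distance rule of the members was not applied to these starts. Here the log2 density was -0.14 (SD 0.06) in the 200 bp upstream and 0.06 (SD 0.04) downstream. There the smoothed profile fell to 0.774 at 25 bp and reached 1.46 at 135 bp, with a place that varied by an SD of only 8.94 bp between autosomes. Pseudogene starts had 1.15 at 25 bp and 1.12 at 135 bp. At 325 bp, near the next maximum of protein-coding starts, the values were 1.06 and 1.23.

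The upstream log2 density of the pseudogenes exceeded that of protein-coding starts by 0.21, with an SD of the difference of 0.09, and on 22 of 22 autosomes. Downstream the difference was 0.12 (SD 0.05), positive on 21 of 22. Both differences were larger than their spread over autosomes. Each log2 density is relative to the flanks of its own set, with 4.41 midpoints per kb at pseudogenes and 4.98 at protein-coding starts. Counted per kb, the 200 bp downstream held 4.99 midpoints at pseudogenes and 5.21 at protein-coding starts, so fewer at pseudogenes. Upstream the values per kb were 4.65 and 4.54. After adjustment for GC content, described below, the downstream values were -0.02 for pseudogenes and 0.00 for protein-coding starts, so the downstream difference did not remain, while upstream they were -0.01 and -0.20. Against the 290 transcribed processed pseudogenes, the differences were 0.07 upstream (SD 0.30) and 0.03 downstream (SD 0.31), and against the 1893 unprocessed pseudogenes 0.05 (SD 0.13) and -0.04 (SD 0.18). None of these 4 exceeded its spread, and in this order they were positive on 13, 13, 13 and 8 of 22 autosomes.

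**Figure D2:**
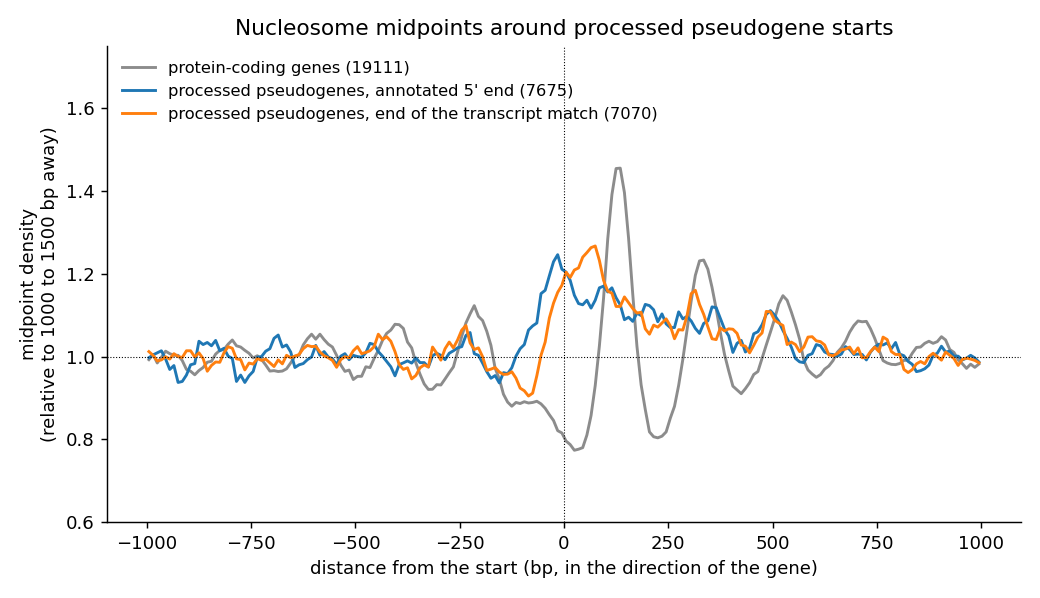
Smoothed density of nucleosome midpoints (vertical axis, relative to 1000 to 1500 bp away) by distance from the start in bp (horizontal axis) for protein-coding genes (grey), processed pseudogenes at their annotated 5' end (blue) and at the end of the transcript match (orange). Protein-coding genes dip to 0.774 and peak at 1.46, while the pseudogene curves stay between 0.905 and 1.27 within 300 bp of the start.

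The relative profile was much the same without repeated sequence. In the 6666 members with under 5% repeated 100-mers within 1500 bp, the log2 density was 0.07 (SD 0.04) upstream and 0.18 (SD 0.07) downstream, against 0.08 and 0.18 in all members. The level was higher, with 4.76 midpoints per kb in the flanks in place of 4.41. Both log2 densities moved by less than their spread.

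The rise moved with GC content. Autosomal midpoints of this list were counted at each GC content, taken over a window as long as the DNA of a nucleosome core. Their mean density at the same GC content is called the expected density of a base. It includes whatever else varies with GC content on the autosomes, which was not separated. GC content was 44.3% in the 200 bp upstream, 47.5% in the 200 bp downstream and 40.9% in the flanks. Observed midpoints were 0.965, 0.955 and 0.971 times the expected number in these 3 zones. Relative to the flanks the log2 density after this adjustment was -0.01 (SD 0.04) upstream and -0.02 (SD 0.05) downstream, both smaller than their spread. In members with under 5% repeated 100-mers, the values were -0.02 (SD 0.03) and -0.03 (SD 0.06).

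In the 100 bp centred on the start, around the highest value of the profile, observed midpoints were 1.00 times the expected number. Relative to the flanks the adjusted log2 density there was 0.05 (SD 0.07), again within its spread, and this zone was chosen after the profile was seen. At protein-coding starts the same zone had -0.38 (SD 0.06).

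At protein-coding starts the depleted region remained after the same adjustment, at -0.20 (SD 0.04) upstream, below 0 on 22 of 22 autosomes. Downstream of these starts it was 0.00 (SD 0.03). The expectation uses GC content only, and other sequence features were not tested.

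**Figure D3:**
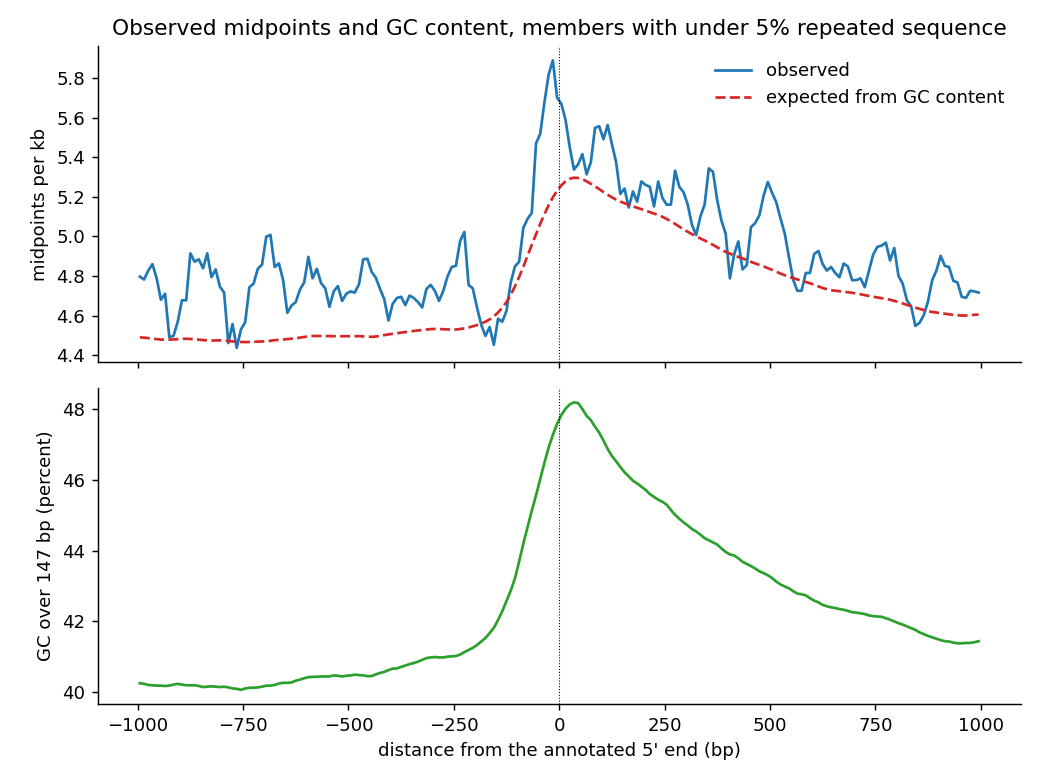
Top, midpoints per kb (vertical axis) observed (blue) and expected from GC content (red, dashed) around the annotated 5' end of the 6666 members with under 5% repeated 100-mers; bottom, their GC content in percent over a window as long as the DNA of a nucleosome core; the horizontal axis of both is the distance from the 5' end in bp. Both the observed and the expected curve are higher at the start, where GC content is 47.1% over the first 200 bp against 40.6% in the flanks.

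Moving the reference point to the end of the transcript match changed the upstream side. For the 7070 matched members, the log2 density in the 200 bp upstream was -0.01 (SD 0.09) at the end of the match, against 0.08 (SD 0.05) at the annotated end. Downstream it was 0.23 (SD 0.06), against 0.18 (SD 0.07). The highest value was 1.27 at 75 bp downstream and the lowest 0.905 at 85 bp upstream. The profile stood at 1.09 by 35 bp upstream, so it passed the level of the flanks close to the end of the match. The match reached within 10 bp of the transcript start in 30.1% of matched members, and in some it began inside the body. Whether it ended at the edge of the copied sequence was not tested. After adjustment for GC content, the log2 density at the end of the match was -0.05 (SD 0.08) upstream and 0.01 (SD 0.04) downstream. These were below 0 on 18 and 7 of 22 autosomes.

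From the last midpoint upstream of a start to the first one downstream, the median distance was 210 bp at the members, with quartiles of 155 and 305 bp. At the centres of the autosomal windows it was 225 bp, and at protein-coding starts 220 bp. Among sites with no repeated 100-mer within 500 bp, the medians were 200 bp at members (180 to 210 bp by autosome), 215 bp at windows (200 to 230 bp) and 220 bp at protein-coding starts (210 to 230 bp). Gaps over 500 bp were found at 4.67%, 8.36% and 1.93% of these sites.

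By place of insertion, judged as above against protein-coding and lncRNA genes only, values differed by less than their spread. The downstream log2 density was 0.19 (SD 0.08) outside genes, 0.17 (SD 0.13) in genes of the other strand, 0.16 (SD 0.13) in genes of the same strand and 0.33 (SD 0.32) in the 151 members inside genes of both strands. The upstream values were 0.08, 0.08, 0.08 and 0.11. Just inside the distance limit, 308 members at 5 to 6 kb from another start had log2 densities of 0.00 upstream (SD 0.27) and 0.11 downstream (SD 0.25). Just outside it, 307 pseudogenes at 4 to 5 kb had 0.13 (SD 0.26) and 0.15 (SD 0.21).

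Bodies also held more positions than their surroundings. Density was 4.76 midpoints per kb of body and 4.36 per kb 1000 to 1500 bp outside, a log2 ratio of 0.13 (SD 0.09), which was below 0 on 1 of 22 autosomes. In bodies with under 5% repeated 100-mers the ratio was 0.18 (SD 0.05), and in the 305 bodies with 50% or more it was -2.19 (SD 1.02 over 13 autosomes). Adjusted for GC content, the log2 ratio of all bodies was -0.07 (SD 0.09), below 0 on 20 of 22 autosomes. In bodies with under 5% repeated 100-mers it was -0.02 (SD 0.04), below 0 on 18 of 22. That of the 3549 bodies without a repeated 50-mer was 0.02 (SD 0.05), below 0 on 7 of 22. Of the 6361 bodies of at least 300 bp, 369 held no midpoint, which is 5.80% (5.25 to 6.40%). The share was 0.907% (0.683 to 1.20%) in bodies without repeated 100-mers and 89.7% (85.2 to 93.0%) where 50% or more was repeated.

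Bodies that resembled a transcript most closely held the fewest positions per kb. Identity was compared over the 5628 members whose match covered at least 80% of the body. Density was 5.12 midpoints per kb in the 875 bodies under 80% identity to their best match and 5.21 in the 2304 bodies at 80 to 90%. It was 4.83 in 1666 bodies at 90 to 95%, 4.35 in 547 at 95 to 98% and 3.55 in 236 at 98% or more. The means over autosomes were 5.12 (SD 0.47) in the lowest class and 3.42 (SD 1.02) in the highest, while the neighbouring classes differed by less than the larger of their SDs. From the lowest class to the highest, density outside the bodies was 4.258, 4.436, 4.497, 4.253 and 3.785 midpoints per kb. In this order body log2 ratios were 0.27 (SD 0.14), 0.23 (SD 0.10), 0.10 (SD 0.19), 0.03 (SD 0.17) and -0.09 (SD 0.51). The last ratio was within its spread and below 0 on 13 of 22 autosomes. The low density of the highest class was thus partly shared by its surroundings. Over these classes the median share of repeated 50-mers in the body was 0, 0, 3.67, 17.7 and 51.2%, and the median GC content stayed between 45.4% and 46.5%. Among bodies of at least 300 bp, the share with no midpoint did not follow this order throughout. It was 6.11% (4.59 to 8.07%) under 80% identity, 4.38% at 80 to 90%, 5.12% at 90 to 95%, 6.19% at 95 to 98% and 14.1% (9.77 to 19.8%) at 98% or more. How much of the order in density comes from reads that could not be placed was not tested.

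**Figure D4:**
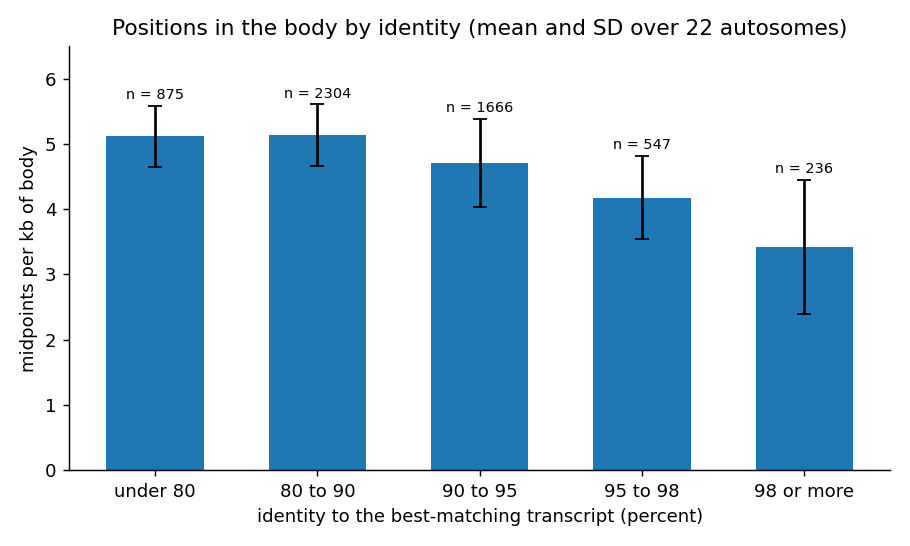
Midpoints per kb of pseudogene body (vertical axis) by identity to the best-matching transcript in percent (horizontal axis) for the 5628 members matched over at least 80% of the body, as mean and SD over 22 autosomes, with the number of members above each bar. The mean is 5.12 under 80% identity and 3.42 at 98% or more.

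Mean scores in bodies were higher than outside, and lower than the mean of autosomal positions of the same GC content. The 29128 positions in bodies had a mean score of 16.4 (SD 0.56), and the 33553 positions 1000 to 1500 bp outside had 15.3 (SD 0.73). The difference was 1.05 (SD 0.41), positive on 22 of 22 autosomes. Autosomal positions of the same GC content had mean scores of 17.4 and 15.5. After subtracting these, bodies were lower than their surroundings by a difference of -0.81 (SD 0.31), negative on 22 of 22 autosomes. In bodies with under 5% repeated 100-mers the 2 differences were 1.19 (SD 0.45) and -0.68 (SD 0.33). Median scores of all members were 14.81 in bodies and 13.57 outside. With under 5% repeated 100-mers in the body, the median was 14.81 both inside and outside, so there the difference lay in the means only.

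Runs of A, such as a poly(A) tail leaves, followed the 3' end of some members. A run of at least 10 A began within 100 bp downstream of the annotated 3' end in 536 members (6.98%), and a run of at least 10 T in 199 (2.59%). Of the autosomal windows, 1.65% held such an A run over the same length. The median run was 13 bases long. The 4 sequences below end with the run in capitals, preceded by the bases before it, 5' to 3' on the strand of the pseudogene on GRCh38; they were taken as runs of 20 A, the longest that could be printed whole with 10 bases before them, beside members named for their matched gene.
ANP32BP3, chr15:81117544-81117573, minus strand: gtagctgtttAAAAAAAAAAAAAAAAAAAA
RPL10AP6, chr3:61742404-61742433, minus strand: ttaccagttcAAAAAAAAAAAAAAAAAAAA
RPL32P2, chr15:34085838-34085867, minus strand: acaaaaactgAAAAAAAAAAAAAAAAAAAA
RPL9P32, chr19:29956286-29956315, minus strand: ggaccttcttAAAAAAAAAAAAAAAAAAAA

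In these 4 members no midpoint fell on the run or within 90 bp of its first base. At RPL9P32, from the gene of a large-subunit ribosomal protein, the nearest midpoints lay 167 bp before the first A and 93 bp after it, with scores of 14.8 and 16.0. At RPL32P2, also of the large subunit, they lay 145 bp before and 165 bp after, with scores of 12.3 and 7.40. RPL10AP6 had them 179 bp before and 221 bp after, with scores of 8.64 and 17.3, and ANP32BP3 had them 204 bp before and 141 bp after, with scores of 11.1 and 12.3. The nearest midpoint was taken on either side, so each run lies between positions by construction.

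Over all 536 members with a run, midpoints were sparse just before the run and dense further upstream. Centred on the first A, the profile had its highest value, 1.49, at 135 bp upstream and its lowest, 0.565, at 85 bp upstream. Between 170 and 110 bp upstream the mean density over autosomes was 1.48 times the flanks (SD 0.45), above 1 on 20 of 22, and between 100 and 20 bp upstream it was 0.72 times (SD 0.57), above 1 on 4 of 22. Both zones were chosen after the profile was seen, and each autosome contributed few members.

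All 951908 autosomal runs of at least 10 A, on either strand, also had more midpoints in the first zone and fewer in the second, but nearer to the flanks. Their means over autosomes were 1.114 (SD 0.022) and 0.9165 (SD 0.013). Both zones were chosen on the profile of the members. The lowest value of all autosomal runs, 0.707, lay 95 bp downstream of the first A, where members had 0.708. The part of the cleavage preference of MNase, which cuts A- and T-rich DNA more readily, was not tested.

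Measured from the annotated 3' end, the log2 density in the 200 bp downstream was -0.23 (SD 0.37) in members with a run and -0.07 (SD 0.08) in the 7139 without. The difference of -0.16 was within its SD of 0.38 and was below 0 on 16 of 22 autosomes. In the 176 members with at least 15 A it was -0.35 (SD 0.48). At the 3' end of the transcript match, 882 of 7070 members had an A run within 40 bp, and there the lowest value of the profile was 0.513 at 65 bp upstream. Among the other 6188 members it was 0.814 at 75 bp upstream.

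**Figure D5:**
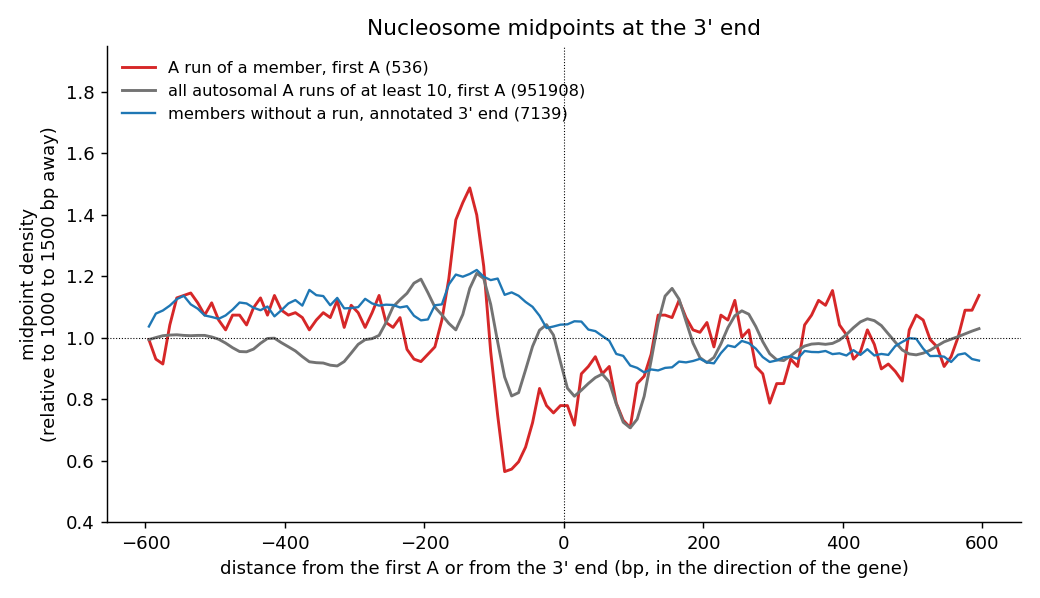
Smoothed density of midpoints (vertical axis, relative to 1000 to 1500 bp away) by distance in bp (horizontal axis) from the first A of the run after the 3' end of 536 members (red), from the first A of all autosomal runs of at least 10 A (grey), and from the annotated 3' end of the 7139 members without a run (blue). The red curve peaks at 1.49, 135 bp before the first A, and falls to 0.565 at 85 bp before it.

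Loss of positions differed between families of copies. Of the 1168 members named for ribosomal proteins (RPL and RPS), 1.88% (1.25 to 2.83%) had no midpoint within 500 bp, against 6.08% (5.50 to 6.70%) of the 6058 members outside the 14 families counted. Mean repeated sequence in the body was 3.70% in the former and 5.17% in the latter. Body log2 ratios of the 2 sets were equal at 0.13. Their downstream log2 densities were 0.14 and 0.18.

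Apart from RPL, RPS and PTMAP, each single family had an interval that included the background of 5.07%. No midpoint was found at 1.73% (1.035 to 2.887%) of the 808 RPL members and 2.22% (1.13 to 4.32%) of the 360 RPS members, both below it. None of the 47 GAPDHP members, the 70 PPIAP members, the 32 copies of the translation elongation factor gene EEF1A1 or the 29 copies of the chromatin protein gene HMGB1 lacked a midpoint within 500 bp. The upper ends of their Wilson intervals were 7.56%, 5.20%, 10.7% and 11.7%, all above that background. The body log2 ratios of these families were 0.29, 0.24, 0.11 and 0.18. The keratin copies KRT8P (36) and KRT18P (51), also with 0 lost, had 0.16 and 0.23 and the high median GC contents of 56.8% and 55.3%.

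The highest body ratio, 0.46, belonged to 33 CYCSP members, copies of the cytochrome c gene, and the lowest, -0.30, to 10 PTMAP members, copies of the prothymosin alpha gene. Of these 10, 2 had no midpoint within 500 bp, which is 20.0% (5.67 to 51.0%). NPM1P, 40 copies of the nucleophosmin gene, had -0.07 with the lowest median GC content, 41.1%. Actin copies (20) and tubulin copies (25) had 0.40 each, and HNRNPA1P, 56 copies of an RNA-binding protein gene, had 0.16. Families of this size have too few positions for a spread over autosomes, so no order is read from these ratios.

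The lowest-numbered member of each family was described singly. The first midpoint in the body lay 4 bp from the start in EEF1A1P1, 13 bp in ACTG1P1 and NPM1P1, and 18 bp in CYCSP1. It lay 26 bp inside RPL10P1, 33 bp inside RPS11P1, 46 bp inside TUBAP1 and 70 bp inside PTMAP1. In 5 members it lay near 100 bp, at 98 bp in KRT18P1, 103 bp in HNRNPA1P2, 105 bp in GAPDHP2, 109 bp in HMGB1P3 and 117 bp in KRT8P1. PPIAP1 had its first at 380 bp. The distances thus ran from 4 to 380 bp with no common place of a first nucleosome. The gap across the start was 100 bp in CYCSP1 and 1050 bp in TUBAP1. None of these 14 had a repeated 100-mer within 500 bp. The best match of NPM1P1 was CLEC2D and that of HNRNPA1P2 was HNRNPA1L3, so a name does not always give the closest transcript.

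Among the members were copies of genes on a fixed list of pluripotency genes, whose expression was not examined here. These copies held 4 to 7 midpoints within 500 bp of their starts. Their parents include POU5F1 and NANOG, transcription factors of the pluripotency network, DPPA3, a maternal factor that protects DNA methylation, LIN28A, an RNA-binding protein, TDGF1, a co-receptor of Nodal, and SALL4, a zinc finger protein. POU5F1P4 (chr1:155433178-155434262, 97.1% identical to POU5F1, inside a gene of the other strand) had 4 midpoints within 500 bp and 5 in its body. Its first lay 44 bp inside the body with a score of 9.87, after a gap of 340 bp. POU5F1P5 (85.9%) had 7 within 500 bp and its first at 100 bp, with a score of 11.1. POU5F1P7, whose match to POU5F1B covered 31.1% of it, had 5, and POU5F1P2 (78.6%) had 6.

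NANOGP2 (chr2:222452400-222453126) and NANOGP3, both closest to NANOGP8, had 6 and 7 midpoints within 500 bp, with the first at 164 and 205 bp. The retained LIN28A copies were LIN28AP1 with 6 and LIN28AP2 with 5, the latter best matched by UGGT1 over 35.7% of its body. The 9 DPPA3 copies among the members had 4 to 6. DPPA2P2 and DPPA2P3 had 7 and 5, and DPPA4P2 and DPPA4P3 had 7 and 6. TDGF1P4, TDGF1P5 and TDGF1P6 had 7, 6 and 5, SALL4P1 and SALL4P6 had 5 each, and KLF4P1 and DNMT3AP1 had 7 and 6. The range of 4 to 7 held 82.0% of all members.

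The 3 longest members without a repeated 100-mer near the start were annotated over several kb. TATDN2P2 (11931 bp), ENSG00000255457 (9933 bp) and ST13P12 (8266 bp) had no repeated 100-mer within 500 bp of the start, and held 58, 38 and 40 midpoints in their bodies. Repeated 100-mers made up 3.51%, 0.292% and 0.351% of these bodies. The match of ST13P12 to ST13, a co-chaperone gene, covered 10.5% of it, that of TATDN2P2 to RPAP2 42.2% and that of ENSG00000255457 to ZNF562 10.8%. Within 500 bp of the start they had 6, 3 and 4 midpoints in the order ending with ST13P12.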

How the data were processed

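All values came from 1 pooled list of nucleosome positions, made from MNase digests of 1 hiPSC line. Per the labels and the methods of the study, reads were trimmed with Trimmomatic 0.40, aligned to GRCh38, cleared of blacklisted regions and run through the nucMACC workflow. The aligner's limit on ambiguous reads, the caller and the runs pooled are not given in the sources used here, while those methods state that the 50-bp runs were not pursued. The authors deposited a score per position, which is used here as a signal that is never negative, and its scale is not stated. Those methods give a range of reads per run, but the list has no read totals, so the depth behind a position is unknown, and midpoints mostly lie on a grid of 10 bp.

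Midpoints (interval start + 70 bp) were counted around strand-oriented ends per 10 bp. The counts were averaged over 5 neighbouring bins and set relative to the mean 1000 to 1500 bp away. Gene ends came from GENCODE release 44, where the study's methods name a later release, so a few members may differ. Repeated words of 100 or 50 bases were counted exactly on both strands of the hg38 sequence, and copies that differ by a base were not. Bodies were matched to the canonical transcripts of protein-coding genes with BLAST 2.17.0. Expected densities and scores came from autosomal midpoints at the same GC content over the length of a nucleosome core. No test was made, because there are no replicates. Spread is the SD over autosomes, and intervals are 95% Wilson intervals. Members, families and comparison sets were chosen with earlier results of these data known. Single members were named by rule: copies of a fixed list of pluripotency genes, the lowest-numbered copy of each family, the 3 longest bodies without a midpoint within 500 bp, and the 3 longest members without a repeated 100-mer near the start. The alternatives were other sets of positions, score weights, other distances, windows, bins, word lengths, body lengths and A runs, and those on GC content and on the end of the match were added after the data were seen. Functions were first tested on simulated positions and sequences. Scripts ran under Python 3.11.15 with numba 0.67.0 for repeated words, NumPy 2.4.6 and pandas 2.3.3 for counts, SciPy 1.17.1 for intervals and matplotlib 3.10.9 for plots.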

Additional observations from a re-analysis of the deposited data

How the results depend on the processing

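When positions scoring below the median were left out, log2 densities were 0.25 upstream, 0.45 downstream and 0.32 over bodies, and the highest value downstream was 1.46. With score weights they were 0.17, 0.33 and 0.22. Relative to the density expected from GC content, an alternative added after the data were seen, they reversed to -0.0092, -0.0237 and -0.0706, and the score difference of bodies reversed to -0.81. At the end of the transcript match, also added later, the upstream value was -0.0095. Bodies without a repeated 50-mer had 0.23. Bins of 25 bp moved the highest value to 112.5 bp. The share of members without a midpoint was 5.88% within 300 bp, 4.50% within 1000 bp, 11.3% without positions scoring below the median, and 0.736% with under 5% repeated 100-mers. The share of bodies without one was 6.72% at 1000 bp or more and 1.07% with under 5% repeated 100-mers. With 50-mers, the share lost where 50% or more was repeated was 72.5%. Of 42 alternatives, 21 stayed within the spread. No paired analysis was possible because the only file is 1 pooled list. The reads behind a single position are unknown, and exact words miss near-identical copies.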
